A study of Mus musculus with 6 samples.

Results

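Genes of cholesterol synthesis, sensing, transport and sulfation were followed in the skin of mice carrying the LynDN transgene and of wild-type (WT) mice. The genes were taken from a list of 34 symbols, and 31 of them had a probe with that single symbol on the array, among 22879 rows tested in all. Acat2, Nr1h2 and Sts were not analysed here. Of the 31 genes, 30 rested on 1 probe, and Ggps1 was the mean of its probes. The study compared total RNA from the skin of 3 LynDN and 3 WT mice on 2-colour arrays. Lyn belongs to the Src family of kinases, and the transgene is also spelled LynDeltaN. The labels give no strain, age, sex or promoter of the transgene. Each LynDN mouse was paired with a WT mouse, and each pair was hybridised once in each dye orientation (2 arrays), so that 6 arrays gave 3 pair values per gene. Pair 1 held LynDN mouse 1 and WT mouse 1, pair 2 held LynDN mouse 2 and WT mouse 3, and pair 3 held LynDN mouse 3 and WT mouse 2.

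Cholesterol is built from acetyl-CoA by way of mevalonate, isoprenoid diphosphates, squalene and lanosterol, and lanosterol is then trimmed and rearranged to cholesterol. The membrane protein Scap carries the transcription factors Srebf1 and Srebf2 to the Golgi for activation when sterols are low, and the Insig proteins hold them back when sterols are high. In the epidermis cholesterol is needed for the lamellar lipids of the barrier, and its sulfate, made by Sult2b1 and removed by the steroid sulfatase, takes part in cornification and desquamation. Oxysterol receptors turn on the exporters Abca1 and Abcg1 when cells hold much cholesterol, a response best known from macrophages.

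The deposited values are log ratios between the 2 channels of an array. Neither the numerator nor the log base is stated, so each sign is given here as deposited and base 2 is assumed. Positive and negative name opposite sides only. A psoriasis-like, inflamed skin has been described in such mice, and the alarmin genes S100a8 and S100a9, which inflamed epidermis makes, had mean log2 ratios of 4.61 and 5.54 with positive values on all 6 arrays. LynDN over WT is therefore the likely direction, but it is not settled. If WT were the numerator, every sign below would turn at once. Levels cannot be read from ratios, so the labelled tissue could not be checked against marker levels. In whole skin, fewer cells of a type and less RNA per cell cannot be told apart.

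The promoters of 5 genes described below are shown first. The enzymes of the lanosterol branch with the largest positive means come first. They are Cyp51 at chr5:4104648-4104947 on the minus strand, Ebp at chrX:8193463-8193762 on the minus strand and Sc5d at chr9:42264251-42264550 on the minus strand. Insig1 at chr5:28071162-28071461 on the plus strand had the most negative ratio. Hmgcs1 at chr13:119690101-119690400 on the plus strand is the early enzyme whose window holds an exact match to the sterol regulatory element TCACNCCAC. Each window is taken from RefSeq (GRCm38.p6) and runs from 250 bases before to 50 bases after an annotated start, 5′ to 3′ in the direction of the gene. Capitals mark CCAAT boxes, read on either strand, and exact matches to the sterol regulatory element.
Cyp51: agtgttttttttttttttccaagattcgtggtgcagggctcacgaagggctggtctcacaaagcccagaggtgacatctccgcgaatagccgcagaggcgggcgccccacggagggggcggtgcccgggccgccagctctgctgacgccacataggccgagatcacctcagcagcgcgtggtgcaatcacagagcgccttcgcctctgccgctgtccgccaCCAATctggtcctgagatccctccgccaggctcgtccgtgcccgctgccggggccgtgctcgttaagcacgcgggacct
Ebp: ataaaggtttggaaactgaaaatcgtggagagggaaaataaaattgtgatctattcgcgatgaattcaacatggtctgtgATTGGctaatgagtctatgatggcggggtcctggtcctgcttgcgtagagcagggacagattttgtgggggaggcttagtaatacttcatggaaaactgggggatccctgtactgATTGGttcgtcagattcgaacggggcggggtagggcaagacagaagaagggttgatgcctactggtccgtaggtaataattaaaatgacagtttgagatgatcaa
Sc5d: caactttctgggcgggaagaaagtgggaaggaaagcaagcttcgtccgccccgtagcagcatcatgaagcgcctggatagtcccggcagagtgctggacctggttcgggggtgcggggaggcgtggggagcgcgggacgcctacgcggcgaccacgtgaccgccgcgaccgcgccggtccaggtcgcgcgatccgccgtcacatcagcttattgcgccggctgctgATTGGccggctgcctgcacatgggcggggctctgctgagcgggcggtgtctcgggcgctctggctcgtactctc
Insig1: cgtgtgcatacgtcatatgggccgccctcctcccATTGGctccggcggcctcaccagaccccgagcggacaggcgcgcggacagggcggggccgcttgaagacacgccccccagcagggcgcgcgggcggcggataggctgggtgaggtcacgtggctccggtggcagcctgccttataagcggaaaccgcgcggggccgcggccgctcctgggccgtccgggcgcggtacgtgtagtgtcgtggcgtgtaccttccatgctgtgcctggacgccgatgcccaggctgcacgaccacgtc
Hmgcs1: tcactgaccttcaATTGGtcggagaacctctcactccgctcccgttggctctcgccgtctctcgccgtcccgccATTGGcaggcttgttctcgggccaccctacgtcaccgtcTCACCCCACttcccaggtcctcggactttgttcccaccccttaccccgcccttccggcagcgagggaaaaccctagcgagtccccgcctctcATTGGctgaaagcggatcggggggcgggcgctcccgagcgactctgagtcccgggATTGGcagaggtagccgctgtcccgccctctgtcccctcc

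Windows were found for 24 of the 31 genes, 34 windows in all, and both strands were searched. The CCAAT box (CCAAT), which binds the factor NF-Y, occurred in all 15 synthesis enzymes with a window and in 5 of the other 9 genes, against 41.1% of 27025 genes in the table. The GC box (GGGCGG), known to bind Sp1, occurred in 20 of the 24 genes, against 38.2% of all genes. An exact match to a sterol regulatory element (TCACNCCAC), the kind of site that Srebf2 is known to bind, was found in 1 of the 24 genes, Hmgcs1, against 1.44% of all genes. Only exact matches to the letters given were searched, so the windows may hold other forms of these sites. Of the synthesis enzymes, Acat1, Fdps, Fdft1 and Sqle had no window. Within these windows the CCAAT box of Cyp51 lay at -29 from the start, that of Sc5d at -24, those of Ebp at -170 and -55, and that of Insig1 at -216. The E-box form of the sterol regulatory element (TCACNTGA) was found in 1 gene, Insig2, against 4.78% of all genes. An exact DR4 element, a direct repeat that oxysterol receptors bind, was found in 0 of the 24, against 0.0148% of all genes. So rare a sequence would hardly be met in 24 genes, so this count says nothing about oxysterol receptor sites. Different motifs overlapped in 0 cases in these windows. The windows of Cyp51, Ebp, Sc5d and Insig1 each held both a CCAAT box and a GC box.

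The ratios of the 31 genes lay on both sides of 0, with a median size of the mean of 0.112, beside 0.0649 over all rows tested. Their means ranged from -0.40 for Insig1 to 0.53 for Sult2b1, 16 were positive, and their median was 0.0034, beside a median of -0.01 and 43.9% positive over all rows tested. In limma (lmFit and eBayes on the 3 pair values, Benjamini-Hochberg adjustment over all rows), 0 of the 31 genes passed a threshold of 0.05 on adjusted p, where 0.0175% of all rows passed. The smallest adjusted p among them was 0.251, for Cyp51. A fit over the 6 arrays that modelled the dye and took each pair for a random block, called the block fit below, also passed 0 of 31, where 1.06% of all rows did. At an unadjusted p under 0.05 there were 10 of the 31 genes, or 32.3% beside 12.3% of all rows. Of these 8 were positive, beside 5.92% of all rows, and 2 were negative, beside 6.41% of all rows. The negative ones were Insig1 and Abca1, and the sign of Abca1 followed the dye orientation, as described below. Without variance moderation there were 3 of the 31, beside 7.66% of all rows. A mean of at least 0.3 was reached by 5 genes on the positive side, beside 3.52% of all rows, and by 1 on the negative side, beside 2.69%.

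The precision bounds what the arrays could show. The 95% interval from limma reached 0.12 to 0.43 to either side of the mean, with a median of 0.17, on the log2 scale. For 26 of the 31 genes the whole interval lay within 1.5-fold of no difference, beside 93.5% of all rows. The exceptions were Cyp51, Ebp, Abcg1 and Sult2b1 on the positive side and Insig1 on the negative side. A difference of 1.5-fold or more thus lay outside the interval of most of the 31 genes.

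**Figure D1:**
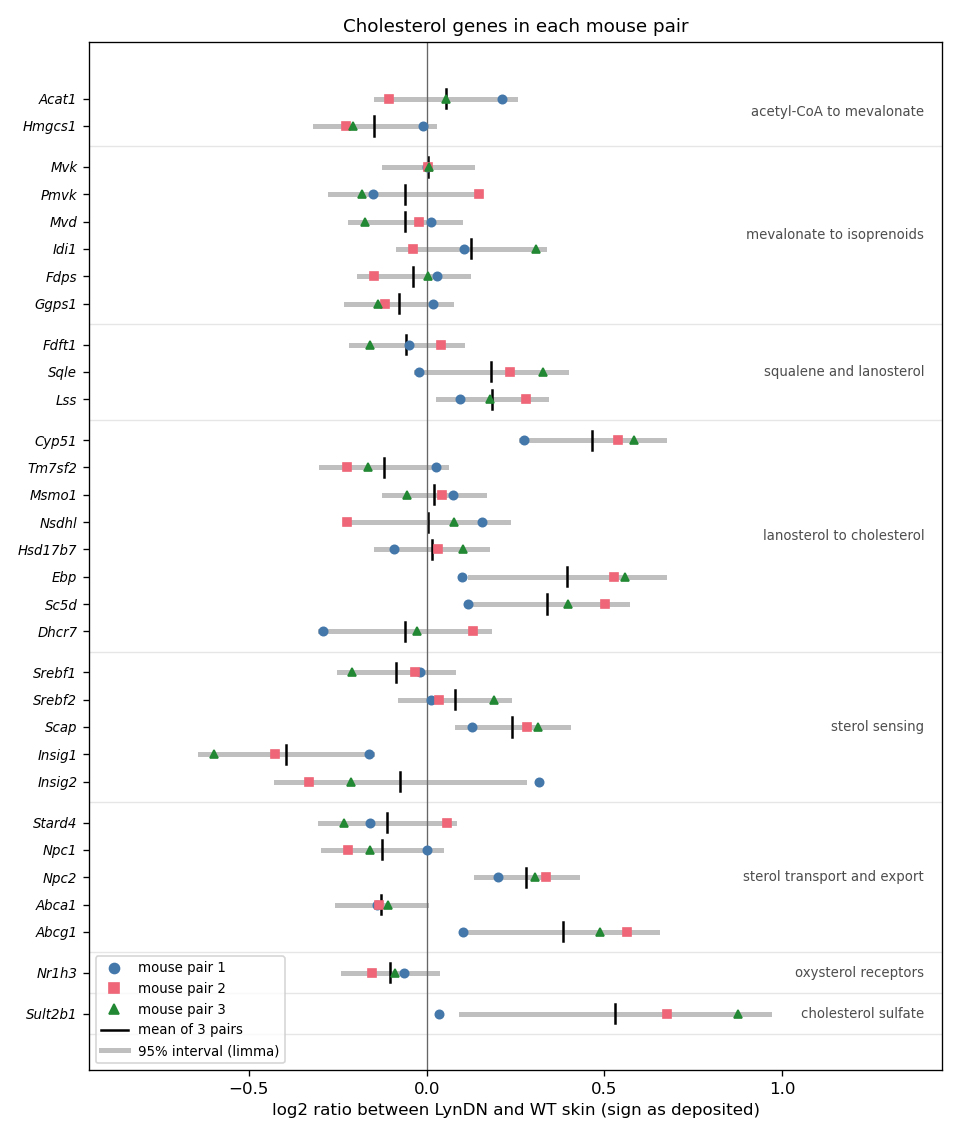
Log2 ratio between LynDN and WT skin, sign as deposited, of the 31 genes ordered by role, with the 3 mouse pairs as points, their mean as a black tick and the 95% interval of limma as a grey bar. Early enzymes gather around 0, whereas Cyp51, Ebp, Sc5d, Abcg1 and Sult2b1 lie to the right and Insig1 to the left, with pair 1 nearest 0 in each of these 6.

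For the first steps of the pathway only Acat1 and Hmgcs1 were measured, both with small means, and Acat2 was not analysed. Acat1, the mitochondrial acetoacetyl-CoA thiolase, had a mean log2 ratio of 0.05 ± 0.16, and Hmgcs1, the cytosolic HMG-CoA synthase, had -0.15 ± 0.12 (SD, n = 3 pairs throughout). Hmgcs1 was negative in every pair, with -0.01, -0.23 and -0.21 in pairs 1, 2 and 3, yet its arrays with LynDN in Cy5 gave -0.25, -0.53 and -0.36 and those with LynDN in Cy3 gave 0.23, 0.07 and -0.05. The 6 enzymes that take mevalonate to isoprenoids had means between -0.08 and 0.13. Of these 6, 0 reached an unadjusted p under 0.05 in limma, beside 12.3% of all rows, which says little for so few genes. Mevalonate kinase (Mvk), phosphomevalonate kinase (Pmvk) and mevalonate decarboxylase (Mvd) had 0.0039 ± 0.0033, -0.06 ± 0.18 and -0.06 ± 0.10. The isomerase Idi1 had 0.13 ± 0.17, the farnesyl diphosphate synthase Fdps -0.04 ± 0.10 and the geranylgeranyl diphosphate synthase Ggps1 -0.08 ± 0.08. The SD of Mvk hides its arrays, which gave 0.03, -0.17 and 0.24 with LynDN in Cy5 and -0.03, 0.18 and -0.22 with LynDN in Cy3, since averaging a dye swap cancels such opposite values.

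Of the 3 enzymes of squalene and lanosterol, Sqle and Lss had positive means. Fdft1, the squalene synthase that commits farnesyl diphosphate to sterols, had -0.06 ± 0.10. Sqle, the squalene epoxidase, had 0.18 ± 0.18, with -0.02, 0.23 and 0.33 in pairs 1, 2 and 3. Its arrays gave -0.10, -0.20 and 0.17 with LynDN in Cy5, and 0.06, 0.66 and 0.48 with LynDN in Cy3. The positive mean of Sqle thus came from one orientation, with means of -0.04 in Cy5 and 0.40 in Cy3. Its dye term of -0.44 did not pass (adjusted p = 0.174 in the block fit). Lss, which closes the rings to lanosterol, had log2 ratios of -0.03, 0.33 and 0.30 on the arrays of pairs 1, 2 and 3 with LynDN in Cy5, and 0.22, 0.23 and 0.05 with LynDN in Cy3. It was positive on 5 of 6 arrays, and its mean of 0.18 ± 0.09 had an interval from 0.03 to 0.34 (limma adjusted p = 0.350).

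Among the 8 enzymes from lanosterol to cholesterol, Cyp51, Ebp and Sc5d stood on the positive side while the other 5 lay near 0. Cyp51, the lanosterol demethylase, had 0.03, 0.60 and 0.49 in pairs 1, 2 and 3 on arrays with LynDN in Cy5, and 0.52, 0.48 and 0.68 with LynDN in Cy3. All 6 arrays were positive, and in pair 1 the 2 arrays differed widely. Its mean was 0.47 ± 0.17, or 1.38-fold, with an interval from 0.26 to 0.67. Ebp, the sterol isomerase, gave 0.00025, 0.34 and 0.46 with LynDN in Cy5 and 0.20, 0.72 and 0.65 with LynDN in Cy3. The values of pair 1 were the lowest in both orientations, and the mean was 0.39 ± 0.26, or 1.31-fold (limma adjusted p = 0.307). Sc5d, the sterol desaturase, gave 0.09, 0.52 and 0.23 with LynDN in Cy5 and 0.15, 0.48 and 0.57 with LynDN in Cy3. Again pair 1 was lowest in both orientations, and the mean was 0.34 ± 0.20, or 1.26-fold (limma adjusted p = 0.298).

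The remaining enzymes of this branch gave no common side. Tm7sf2, a sterol reductase, had -0.12 ± 0.13, and Dhcr7, the reductase of the last step, had -0.06 ± 0.21. Nsdhl, a sterol dehydrogenase that removes a carboxyl group, had 0.00 ± 0.20, the ketosteroid reductase Hsd17b7 had 0.01 ± 0.10, and the methylsterol oxidase Msmo1 had 0.02 ± 0.07. In the branch Cyp51 acts first, whereas Ebp and Sc5d act close to its end.

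Of the 5 sterol sensing genes, Insig1 and Scap had the largest means in size, on opposite sides of 0. On the 3 pair values 0 of the 5 passed, beside 0.0175% of all rows. Insig1, which holds the Scap complex in the endoplasmic reticulum and is itself a target of the pathway, gave -0.30, -0.54 and -0.68 in pairs 1, 2 and 3 on arrays with LynDN in Cy5, and -0.03, -0.32 and -0.52 with LynDN in Cy3. It was negative on 6 of 6 arrays, the only one of the 31 genes to be so, and pair 1 was nearest 0 in both orientations. Its mean was -0.40 ± 0.22, a 1.32-fold difference, with an interval from -0.64 to -0.15 (limma adjusted p = 0.282). Scap gave 0.28, 0.14 and 0.36 with LynDN in Cy5 and -0.02, 0.43 and 0.27 with LynDN in Cy3. It was positive on 5 of 6 arrays, with a mean of 0.24 ± 0.10 (limma adjusted p = 0.293). Srebf1, Srebf2 and Insig2 had -0.09 ± 0.11, 0.08 ± 0.10 and -0.08 ± 0.34. Insig2 had the widest spread of these, with 0.32 in pair 1 against -0.33 and -0.21 in pairs 2 and 3.

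Transport genes lay on both sides. Npc2, a soluble carrier that hands cholesterol over in the lysosome, gave 0.17, 0.22 and 0.19 with LynDN in Cy5 and 0.23, 0.45 and 0.43 with LynDN in Cy3. It was positive on 6 of 6 arrays and varied little between pairs, with a mean of 0.28 ± 0.07, or 1.21-fold, and an interval from 0.14 to 0.42 (limma adjusted p = 0.273). Its partner Npc1, the lysosomal membrane protein, had -0.13 ± 0.11, and Stard4, a cytosolic sterol carrier, had -0.11 ± 0.15. Abcg1, an exporter of cholesterol to lipoproteins, gave 0.02, 0.57 and 0.45 with LynDN in Cy5 and 0.19, 0.55 and 0.52 with LynDN in Cy3. All arrays were positive, with pair 1 the lowest in both orientations, and the mean was 0.38 ± 0.25, or 1.31-fold (limma adjusted p = 0.307). Abca1, the other exporter, had a mean of -0.13 ± 0.02, and Nr1h3, the oxysterol receptor known as LXR alpha, had -0.10 ± 0.05, and neither passed.

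Sult2b1, the sulfotransferase that makes cholesterol sulfate in the upper epidermis, had the largest mean of the 31 genes. It gave -0.12, 0.48 and 1.04 in pairs 1, 2 and 3 with LynDN in Cy5, and 0.19, 0.87 and 0.71 with LynDN in Cy3. It was positive on 5 of 6 arrays, with little difference in pair 1. The mean was 0.53 ± 0.44, or 1.44-fold, with an interval from 0.10 to 0.96 (limma adjusted p = 0.347).

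**Figure D2:**
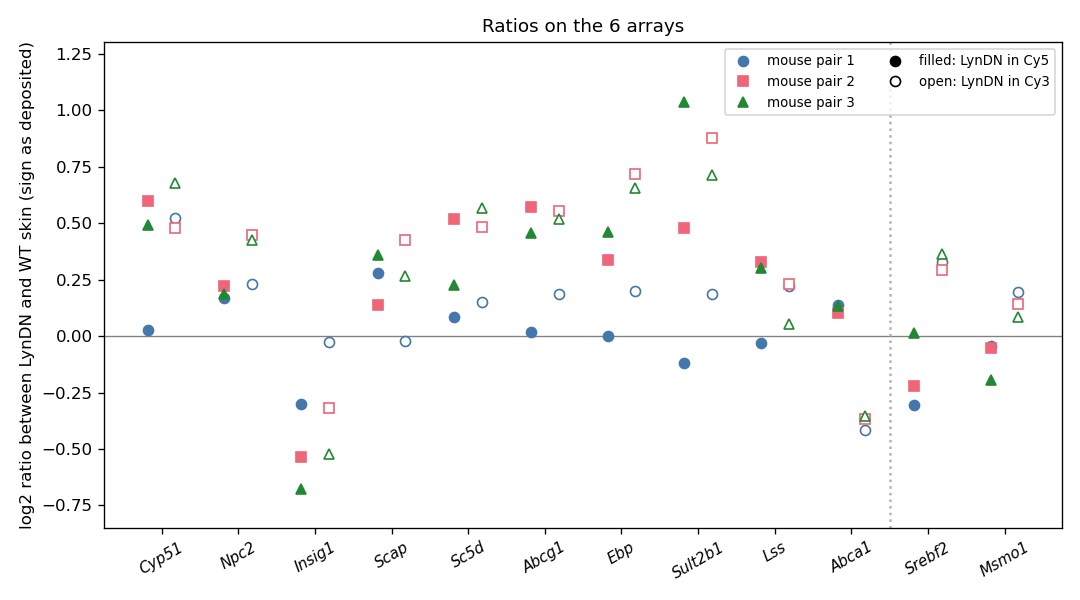
Log2 ratio between LynDN and WT skin, sign as deposited, on each of the 6 arrays, for the 10 genes of smallest limma p in order of p, and, right of the dotted line, Srebf2 and Msmo1. Filled points are arrays with LynDN in Cy5, open points arrays with LynDN in Cy3, and shapes are mouse pairs. The filled and open points of Abca1 lie on opposite sides of 0, whereas all points of Cyp51, Npc2, Sc5d, Abcg1 and Ebp lie at or above 0 and all of Insig1 below it.

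The ratios of the 31 genes spread less in mouse pair 1 than in the other pairs. The SD across the 31 genes was 0.13 in pair 1 against 0.28 in pair 2 and 0.31 in pair 3, while over all rows it was 0.19, 0.29 and 0.30. Across the 31 genes pairs 3 and 2 correlated with Pearson r = 0.863, pairs 2 and 1 with r = 0.229 and pairs 3 and 1 with r = 0.459, where the genes share their arrays and are not independent replicates. Within pair 1 the 2 arrays of the dye swap correlated with r = 0.00599 across these genes, against 0.604 in pair 2 and 0.722 in pair 3. Over all rows these correlations were 0.0239, 0.463 and 0.462.

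Without pair 1, 6 of the 31 genes passed in limma, where 4.88% of all rows passed. There were 5 positive genes, beside 3.22% of all rows, and 1 negative gene, beside 1.67%. They were Sult2b1 with a mean log2 ratio of 0.78 (adjusted p = 0.0118), Cyp51 with 0.56 (adjusted p = 0.0166), Ebp with 0.54 (adjusted p = 0.0175), Abcg1 with 0.53 (adjusted p = 0.0200), Sc5d with 0.45 (adjusted p = 0.0327) and, on the negative side, Insig1 with -0.51 (adjusted p = 0.0305). This fit rests on 2 mouse pairs. Without pair 2, 0 of the 31 passed, where 0.00874% of all rows did, and without pair 3 it was 0 as well, where 0.0175% did. At an unadjusted p under 0.05 there were 3 of 31 genes without pair 2, beside 5.35% of all rows, and 3 of 31 without pair 3, beside 4.77%. Whether pair 1 and the other pairs differ in these 6 genes was not tested.

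The sign of some genes followed the dye orientation. Abca1 gave 0.14, 0.10 and 0.13 in pairs 1, 2 and 3 with LynDN in Cy5, and -0.42, -0.37 and -0.35 with LynDN in Cy3. The orientations did not overlap, the pairs nearly coincided within each, and the difference of 0.50 passed as a dye term (adjusted p = 0.0276 in the block fit), so the small SD of Abca1 over pairs does not show that its arrays gave the same answer. Srebf2, the factor that drives cholesterol synthesis, gave -0.30, -0.22 and 0.01 with LynDN in Cy5 and 0.33, 0.29 and 0.36 with LynDN in Cy3, and its dye term of -0.50 passed too (adjusted p = 0.0492 in the block fit). Msmo1 gave -0.04, -0.05 and -0.20 with LynDN in Cy5 and 0.19, 0.14 and 0.08 with LynDN in Cy3. Its means were -0.10 and 0.14, negative and positive on all 3 arrays each. The dye term of Msmo1, -0.24, did not pass (adjusted p = 0.162 in the block fit). A dye term past the threshold was thus seen in 2 of the 31 genes, beside 2.56% of all rows, and opposite signs on all arrays of the orientations in 2 of 31, beside 11.4% of all rows. One sign on all 6 arrays was found for 6 genes, Cyp51, Ebp, Sc5d, Npc2, Abcg1 and Insig1, or 19.4% beside 8.03% of all rows. The 5 positive ones stand beside 3.72% of all rows, and the negative one beside 4.31%.

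**Figure D3:**
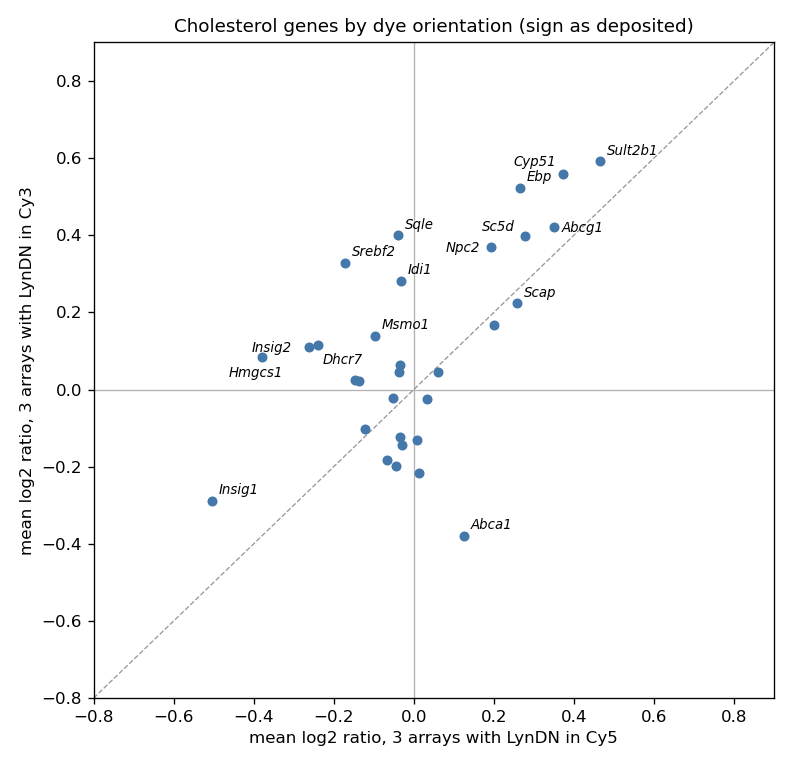
Mean log2 ratio of each of the 31 genes over the 3 arrays with LynDN in Cy5 (horizontal) and over the 3 with LynDN in Cy3 (vertical), sign as deposited, with equal values along the dashed line. Sult2b1, Cyp51, Ebp, Abcg1, Sc5d, Npc2 and Scap lie on the positive side in both orientations and Insig1 on the negative side in both. Abca1 and Srebf2 lie in quadrants of opposite sign. So do Hmgcs1, Mvk, Pmvk, Mvd, Idi1, Fdft1, Sqle, Msmo1, Nsdhl, Hsd17b7, Dhcr7, Insig2 and Nr1h3.

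Other genes of sterol metabolism were read from a list of 29, of which 23 were measured. On the 3 pair values 0 passed, where 0.0175% of all rows did. Of the 23 genes 13 were positive, beside 43.9% of all rows, and the median of the 23 was 0.02. The largest ratio was that of Cyp7b1, a hydroxylase that breaks down oxysterols, with 0.50, 1.60 and 1.39 in pairs 1, 2 and 3 and positive values on all 6 arrays. Its mean of 1.16 ± 0.58 did not pass in limma on the pairs (adjusted p = 0.273) but passed with the pair as a block (adjusted p = 0.0407) and without pair 1 (adjusted p = 0.00200). Lbr, a sterol reductase of the nuclear envelope, had -0.30 ± 0.08, with a dye term of -0.78 (adjusted p = 0.0212 in the block fit). Abcg4, a transporter akin to Abcg1, had 0.23 ± 0.12, and Erlin1, an endoplasmic reticulum protein that takes part in sterol-regulated degradation, had 0.24 ± 0.21 and passed without pair 1 (adjusted p = 0.0472). Of 10 measured genes that use isoprenoids, 0 passed on the pair values, where 0.0175% of all rows did, and the median was -0.01. Nus1, a subunit of the enzyme that makes dolichol precursors, had 0.37 ± 0.29 and passed without pair 1 (adjusted p = 0.0175), and Coq2, of ubiquinone synthesis, had -0.13 ± 0.04.

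Fatty acid synthesis genes, which Srebf1 and the oxysterol receptors are known to control, were all measured, 14 in number. Of these 0 passed on the pair values, where 0.0175% of all rows did, and 5 were positive, beside 43.9% of all rows. The median of the 14 was -0.11, with 0.01, -0.04 and -0.22 in pairs 1, 2 and 3. Thrsp, a lipogenic regulator, had -0.45 ± 0.21, Pnpla3 had -0.24 ± 0.04, the desaturase Scd2 had -0.65 ± 0.45 and the acyl-CoA ligase Acsl3 had -0.28 ± 0.20. Without pair 1, Scd2 passed (adjusted p = 0.0105). Thrsp, Pnpla3 and Scd2 were negative on 6 of 6 arrays, beside 4.31% of all rows. On the positive side, Mid1ip1, a partner of acetyl-CoA carboxylase, had 0.21 ± 0.13 and was positive on 6 of 6 arrays, beside 3.72% of all rows, and the desaturase Scd1 had 0.20 ± 0.20.

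Markers of macrophages, of basal and suprabasal keratinocytes and of the hair follicle had medians further from 0 in pairs 2 and 3 than in pair 1. Macrophage markers had a median of -0.04 in pair 1, 0.48 in pair 2 and 0.81 in pair 3 over 9 measured genes. Of the 9 genes 8 were positive on average, the means ran from -0.22 to 0.88, and 0 passed on the 3 pairs. Over all rows 43.9% were positive on average and 0.0175% passed on the 3 pairs. Basal keratinocyte markers had medians of 0.23, 0.57 and 0.48 (6 genes, all positive), and suprabasal markers, from the layers in which Sult2b1 is known to act, had -0.39, -1.25 and -1.64 (6 genes, all negative). Hair follicle markers had 0.11, -0.65 and -0.46 (9 genes). Sebaceous gland markers, from cells rich in lipid synthesis, had 0.03, 0.13 and 0.04 (9 genes), led by Elovl3 with 0.32 ± 0.14. Adipocyte markers had 0.19, -0.27 and -0.09 (8 genes), with Pnpla2 at 0.29 ± 0.16 and Lep at -0.55 ± 0.44, which passed without pair 1. The 6 measured genes of wounded epidermis had medians of 3.08, 4.31 and 4.53, and 3 of them passed on the 3 pairs, beside 0.0175% of all rows. The block fit passed 2 basal, 2 suprabasal, 1 hair follicle and 5 wounded epidermis markers, and 0 of the macrophage, sebaceous and adipocyte lists, beside 1.06% of all rows. Without pair 1 there were 7 macrophage, 3 basal, 5 suprabasal, 5 hair follicle, 2 adipocyte, 6 wounded epidermis and 0 sebaceous markers past the threshold, beside 4.88% of all rows. The part of these cell markers in the ratios of Sult2b1, Cyp51, Ebp, Sc5d, Abcg1 and Insig1 was not tested.

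**Figure D4:**
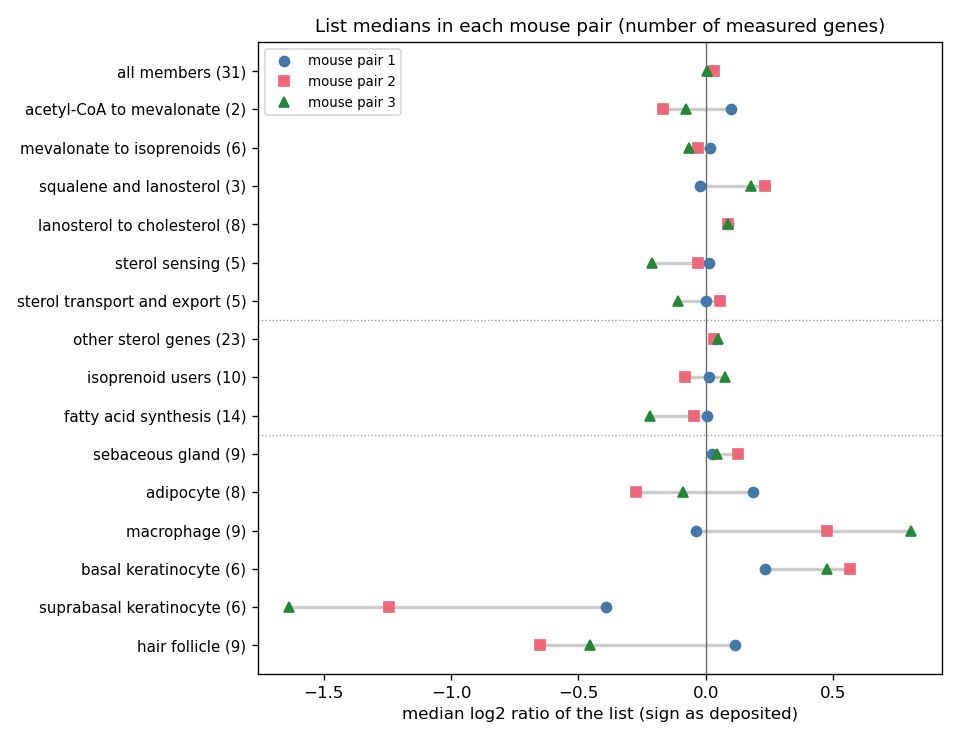
Median log2 ratio, sign as deposited, of the cholesterol gene groups of more than 1 gene (top), of related metabolic lists (middle) and of cell markers (bottom) in each mouse pair, with the number of measured genes in brackets and a grey bar over the range of the pairs. Genes of wounded epidermis, with medians from 3.08 to 4.53, are left out for scale. Medians of the cholesterol groups lie between -0.21 and 0.23, and those of macrophage and suprabasal markers spread further between pairs.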

How the data were processed

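Total RNA of mouse skin was extracted with Qiagen and labelled with Ambion reagents, per the labels' protocols. The authors deposited 1 log2 ratio per probe and array (base 2 assumed). The scanner, background correction, normalization and numerator were not given in the sources used here. Probes were named through the platform annotation: 21082 of 25344 had 1 symbol, and probes of 1 symbol were averaged on each array. Pairing follows the labels, which name the LynDN and the WT mouse on each array, and both arrays of a pair were averaged. For 22879 rows, limma 3.58.1 (R 4.3.3) tested whether the mean over 3 pairs was 0, with Benjamini-Hochberg adjustment and a threshold of 0.05. In the block fit the correlation within pairs was estimated at 0.151 (duplicateCorrelation). An SD over pair values does not hold the difference within a dye swap. Alternatives were other normalizations and variance models, arrays as separate samples, other row sets and leaving out each pair. The number of arrays limits the precision.

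Each measured gene of the list is named. Array values are given for the 10 of smallest p, for means of at least 0.5 and for genes whose sign followed the dyes, and of other lists up to 4 genes of smallest p are named; array or pair values of Hmgcs1, Mvk, Sqle, Insig2 and Srebf2, and the genes Mid1ip1 and Scd1, were singled out after they were seen. Genes and lists were chosen with earlier results of these data known. Both fits were tested on simulated data. Motifs were searched in RefSeq promoter windows. Figures were drawn with matplotlib 3.10.9.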

Additional observations from a re-analysis of the deposited data

Results flagged for a closer look

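Abca1, Srebf2 and Msmo1 are listed because their ratios differed between the dye orientations. For Abca1 the mean was 0.12 with LynDN in Cy5 and -0.38 with LynDN in Cy3, a difference of 0.50 (adjusted p = 0.0276 for the dye term in the block fit), with opposite signs on all 3 arrays of each orientation. For Srebf2 the mean was -0.17 with LynDN in Cy5 and 0.33 with LynDN in Cy3, a difference of -0.50 (adjusted p = 0.0492). For Msmo1 the mean was -0.10 with LynDN in Cy5 and 0.14 with LynDN in Cy3, a difference of -0.24 that did not pass (adjusted p = 0.162). Each orientation holds 3 arrays, too few for a check of single arrays standing apart from their group.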

How the results depend on the processing

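The count of cholesterol genes past the threshold, 0 on the 3 pairs, was 0 with the replicate block, after quantile normalization, with arrays centred on the median, without variance moderation, with a robust prior, among named genes only and with every probe as a row. It was 2 (Cyp51 and Npc2) with the arrays as separate samples, beside 1.39% of all rows. That setting counts both arrays of a dye swap as replicates, although they hold the same RNA and are 1 replicate. At an unadjusted p under 0.05 limma gave 11 of the 31 genes with the block, beside 14.5% of all rows, and 3 without moderation, beside 7.66%. Leaving out pairs gave 0 to 6, with the 6 found without pair 1. The cause of that change was not tested. Over all rows the count of 4 became 243 with the replicate block, 319 with arrays as separate samples, 72 after quantile normalization and 0 without moderation, and 2 to 1117 when a pair was left out. Among the genes named here the paired fit with the block changed only the call of Cyp7b1. The median of the 31 genes, 0.0034, ranged from -0.016 to 0.0092 without single pairs. Of 248 single-gene values under the other 8 alternatives, 246 kept their side and their call and 0 changed sign. Of 93 values without single pairs, 8 in 7 genes changed sign: Acat1 ranged from -0.025 to 0.13, Fdps from -0.072 to 0.017, Msmo1 from -0.0065 to 0.059, Nsdhl from -0.073 to 0.12, Hsd17b7 from -0.030 to 0.066, Dhcr7 from -0.16 to 0.052 and Insig2 from -0.27 to 0.051. Adjusted p of Cyp51 ranged from 0.0166 to 0.904 over all alternatives. Spot intensities were not used here, so signal over background could not be examined.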
